A study of Homo sapiens with 6 samples.

Results

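Collagen chains were examined in RNA sequencing of MDA-MB-231 cells with and without knockdown of PUS1. The chains were taken as every gene whose symbol has the form COL, a number, A and a number, which gave 44 of the 60605 genes in the deposited table. MDA-MB-231 is an established line from a triple-negative breast cancer, and PUS1 encodes an enzyme that converts uridine to pseudouridine in RNA. The control group (shControl, 3 libraries) carried a control hairpin, and the knockdown group (shPUS1, 3 libraries) carried a hairpin against PUS1. Both groups were the same line in the same serum-supplemented medium, and poly(A) RNA was sequenced. The methods describe puromycin-resistant pLKO.1 lentiviral vectors for the PUS1 hairpins and cells selected and then kept in puromycin. They do not say which PUS1 hairpin the sequenced cells carried, and they do not describe the control vector further. The deposited labels of the shPUS1 libraries carry a knockdown number, without linking it to a hairpin. Stable cells of 1 line and 1 comparison limit what the groups can represent. The titles call the libraries biological replicates without saying that they came from separate cultures, so p-values measure the spread between these libraries, which may be technical.

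Library totals lay between 14241505 and 19625998 estimated counts. PUS1 was at 2.57, 4.66 and 2.18 FPKM (counts scaled to exonic length and library total) in shControl replicates 1 to 3 and at 1.13, 0.95 and 0.93 FPKM in shPUS1 replicates 1 to 3. All 3 knockdown libraries were below all 3 control libraries (log2 change, shPUS1 over shControl, of -1.64, standard error 0.32, edgeR adjusted p = 0.0462). shControl replicate 2 was the highest library for PUS1, and without it the log2 change was -1.20 with an adjusted p of 0.00311. The call was kept in 7 of 13 alternatives, with an adjusted p of up to 0.253 over them, and it was lost without shControl replicate 1 and without any of the shPUS1 libraries. The line's markers VIM, CD44, KRT18 and AXL were abundant, with VIM at 286 to 498 FPKM, while ESR1, PGR and FOXA1 did not exceed 0.04 FPKM and CDH1 did not exceed 0.18 FPKM. ERBB3, at 0.65 to 3.19 FPKM, and GATA3, at 1.55 to 2.16 FPKM, had been listed as absent from the line and were measured in every library. Across genes, log2 CPM of shControl replicate 2 had correlations of 0.9505 and 0.9521 with the other control libraries, against 0.981 between those and 0.9872 to 0.9906 within shPUS1. Both values are given for each collagen gene whose call or sign changed when shControl replicate 2 was left out. For other genes the values without it are given only in part.

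Collagens are secreted or membrane proteins whose chains wind together into a triple helix, as copies of 1 chain or as fixed mixtures of chains. Fibrillar collagens build fibrils, type IV collagens build the sheet-like network of basement membranes, and fibril-associated, beaded filament and transmembrane collagens tie cells and fibrils to that matrix. In breast tumors much of the fibrillar collagen comes from fibroblasts, while carcinoma cells also make basement membrane collagens and remodel the matrix as they invade.

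Type IV collagen genes lie in head-to-head pairs that share a promoter region. The promoter windows of the 2 pairs in which both genes had enough counts to be tested are shown because their members could be compared within a pair. The sequences are those of RefSeq on GRCh38.p14, from 250 bases before to 50 bases after the start of each gene, and 32 of the 44 collagen genes had an entry. They are written 5′ to 3′ on the strand of the gene, with matches to CCAAT or GGGCGG on either strand in capitals, so that ATTGG and CCGCCC are capitalised as well. COL4A1 lies on the minus strand at chr13:110307108-110307407, COL4A2 on the plus strand at chr13:110307034-110307333, COL4A3 on the plus strand at chr2:227164374-227164673 and COL4A4 on the minus strand at chr2:227164156-227164455.
COL4A1: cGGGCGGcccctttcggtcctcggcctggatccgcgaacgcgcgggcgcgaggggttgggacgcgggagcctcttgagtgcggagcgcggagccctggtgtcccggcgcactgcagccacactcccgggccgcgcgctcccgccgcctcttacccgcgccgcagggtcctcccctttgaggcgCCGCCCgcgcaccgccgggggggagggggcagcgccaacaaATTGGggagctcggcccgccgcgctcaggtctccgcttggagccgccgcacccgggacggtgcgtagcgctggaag
COL4A2: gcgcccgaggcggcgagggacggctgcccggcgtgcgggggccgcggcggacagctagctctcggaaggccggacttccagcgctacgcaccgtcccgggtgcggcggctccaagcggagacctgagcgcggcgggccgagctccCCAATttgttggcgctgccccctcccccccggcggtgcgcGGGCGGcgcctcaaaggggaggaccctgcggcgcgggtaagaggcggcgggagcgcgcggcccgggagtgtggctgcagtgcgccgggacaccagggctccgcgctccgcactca
COL4A3: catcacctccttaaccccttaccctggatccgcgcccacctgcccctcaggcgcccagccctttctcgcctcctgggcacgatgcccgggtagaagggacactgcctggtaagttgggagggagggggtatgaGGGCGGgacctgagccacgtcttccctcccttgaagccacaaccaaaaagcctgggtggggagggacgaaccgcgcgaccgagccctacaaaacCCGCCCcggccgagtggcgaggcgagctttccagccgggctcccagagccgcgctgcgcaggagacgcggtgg
COL4A4: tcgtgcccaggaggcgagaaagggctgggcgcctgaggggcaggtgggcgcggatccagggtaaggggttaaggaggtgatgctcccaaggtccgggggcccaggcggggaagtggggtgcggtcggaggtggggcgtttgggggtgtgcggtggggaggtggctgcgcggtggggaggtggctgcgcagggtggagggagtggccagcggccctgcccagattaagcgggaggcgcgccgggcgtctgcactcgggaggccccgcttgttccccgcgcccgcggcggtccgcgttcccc
The windows of COL4A1 and COL4A2 shared 226 bases, with start sites 127 bases apart. Those of COL4A3 and COL4A4 shared 82 bases, with start sites 419 bases apart. COL4A1 and COL4A2 each held 1 match to CCAAT, the same one read on opposite strands. COL4A1 held 2 matches to GGGCGG, COL4A2 held 1 and COL4A3 held 2, and COL4A4 had no match to either motif in its window. Of all 35116 promoters in the same table, 34.6% held CCAAT, 45.0% held GGGCGG and 14.4% held both, and the motifs do not overlap one another.

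Of the 44 collagen genes, 13 were expressed at a mean of at least 1 FPKM over the 6 libraries. COL8A1, which encodes a chain of the short, network-forming type VIII collagen, was the highest collagen mRNA in each of the 6 libraries by the listed exonic length. It was at 50.3, 17.9 and 56.6 FPKM in shControl replicates 1 to 3 and at 43.5, 45.0 and 40.8 FPKM in shPUS1 replicates 1 to 3. The knockdown libraries lay inside the range of the control libraries, and shControl replicate 2 was the lowest of all. Next in mean level were COL12A1 (21.2 FPKM, a fibril-associated chain), COL6A2 (18.4 FPKM, a chain of beaded filaments), COL4A2 (13.9 FPKM, basement membrane) and COL13A1 (13.6 FPKM, a transmembrane chain). Among these genes each library range overlapped that of the next, down to COL13A1. COL13A1, at 11.04 to 17.0 FPKM, lay above COL6A1, at 9.67 to 10.46 FPKM, in every library. COL6A1, COL18A1, COL5A1 and COL4A1 followed at means of 10.2, 9.36, 8.03 and 7.83 FPKM with overlapping ranges. COL7A1, COL1A1, COL17A1 and COL4A4 had means of 2.96, 2.43, 2.41 and 1.59 FPKM, and their ranges overlapped as well. No library of this last set exceeded 3.64 FPKM, and no library of the 9 higher genes was below 6.29 FPKM.

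**Figure D1:**
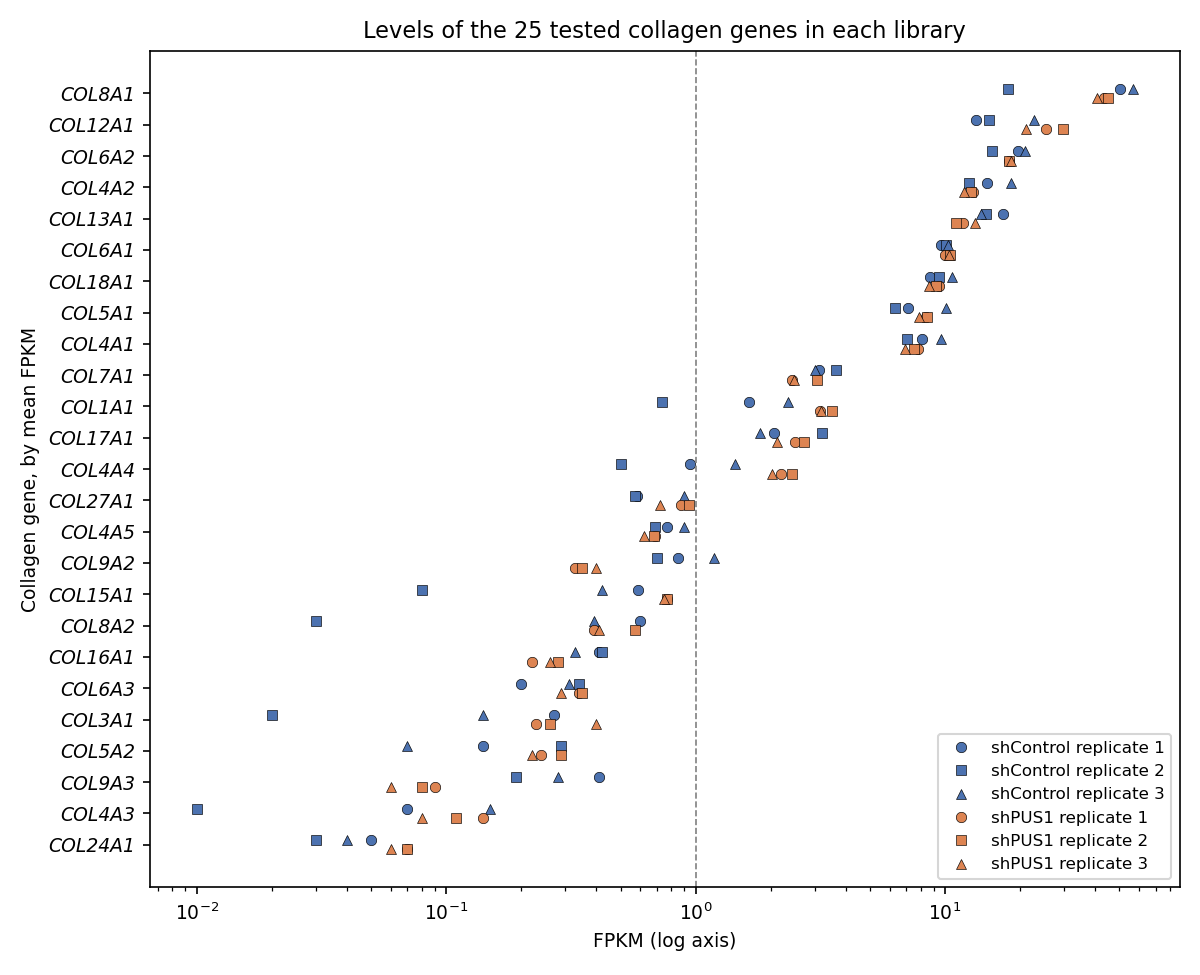
FPKM on a log axis of the 25 collagen genes with enough counts to be tested, ordered by mean level, with 1 symbol per library and a dashed line at 1 FPKM. COL8A1 is the highest gene at 17.9 to 56.6 FPKM, and in several genes, such as COL15A1, COL8A2 and COL3A1, shControl replicate 2 (blue squares) lies far below the other libraries.

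The 13 expressed genes held 96.8% to 97.2% of the summed FPKM of all collagen genes. That sum was 161, 120 and 187 FPKM in shControl replicates 1 to 3 and 162, 169 and 153 FPKM in shPUS1 replicates 1 to 3, so the groups overlapped. COL8A1 held 14.9% of it in shControl replicate 2 and 26.6% to 31.2% in the other 5 libraries. Collagen genes took 0.136% to 0.212% of the counts of a library. The order of levels depends on the exon length used. With the longest coding transcript of GENCODE release 29 in place of the listed exonic length, COL8A1 stayed first at a mean of 69.9 FPKM, COL13A1 moved to the next place with 49.1 FPKM and COL4A2 followed with 41.1 FPKM. In shControl replicate 2, however, COL8A1 was then at 29.5 FPKM, below COL13A1 at 52.8 and COL4A2 at 37.0 FPKM. On that scale 15 genes reached 1 FPKM, with COL27A1 and COL4A5 added.

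The expressed genes came from 8 of the 9 structural classes. They were 2 of 11 fibrillar chains (COL1A1 and COL5A1), 3 of 6 type IV chains (COL4A1, COL4A2 and COL4A4), 2 of 5 type VI chains (COL6A1 and COL6A2), and COL7A1, the chain of the anchoring fibrils. They also included 1 of 3 short network chains (COL8A1), 1 of 10 fibril-associated chains (COL12A1), 2 of 4 transmembrane chains (COL13A1 and COL17A1) and 1 of 2 multiplexins (COL18A1, the source of endostatin). A further 12 genes were below 1 FPKM but had enough counts to be tested. The other 19 were not tested. COL5A3, COL23A1, COL22A1, COL2A1, COL9A1, COL26A1, COL10A1 and COL6A5 had 0 counts in all 6 libraries. Such a 0 allows up to 3 counts, or 0.153 to 0.211 CPM depending on the library, for counting error only. COL11A1, COL11A2, COL4A6, COL19A1, COL1A2, COL14A1, COL21A1, COL25A1, COL6A6, COL20A1 and COL28A1 had between 0 and 17 counts in a library.

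Several chains were measured far above a chain they are known to assemble with, a description made after the values had been seen. Type I collagen is usually built of COL1A1 and COL1A2 chains. COL1A1 had 129 to 583 counts per library, whereas COL1A2 had 0 to 5. COL5A1, which forms type V collagen with COL5A2, was at 6.29 to 10.04 FPKM and COL5A2 at 0.07 to 0.29 FPKM. COL8A2, the other chain of type VIII collagen, was at 0.03 to 0.60 FPKM. COL6A3, which joins COL6A1 and COL6A2 in type VI collagen, was at 0.20 to 0.35 FPKM, against 9.67 to 10.46 FPKM of COL6A1 and 15.5 to 21.0 FPKM of COL6A2. These are mRNA levels, and no protein was measured.

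For the 2 pairs of partner chains in which both were expressed, the ratio of FPKM within a library was compared between groups. The ratio of COL4A1 to COL4A2, the neighbours whose promoters are printed above, was 0.548, 0.565 and 0.524 in shControl replicates 1 to 3 and 0.604, 0.591 and 0.579 in shPUS1 replicates 1 to 3. The knockdown libraries were all above the control libraries, with a log2 difference of 0.12 (exact two-sided permutation test, p = 0.1, the lowest that this design can give, and 0.2 after adjustment over both ratios). With the longest coding transcripts the same ratio was 0.391 to 0.451, so its size depends on the length used. The 2 genes overlap at their starts on opposite strands, and whether the counting used strand is not stated. The ratio of COL6A1 to COL6A2 was 0.492, 0.653 and 0.491 in shControl replicates 1 to 3 and 0.556, 0.579 and 0.564 in shPUS1 replicates 1 to 3. The groups overlapped (log2 difference 0.07, exact permutation test, p = 0.6, adjusted p = 0.6), and shControl replicate 2 was the highest library.

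The comparison of shPUS1 with shControl asked which collagen mRNAs changed after the knockdown of PUS1. With all 6 libraries none of the 25 tested collagen genes passed the threshold, a log2 change of at least 1 in either direction with an adjusted p below 0.05 in edgeR's quasi-likelihood test. Of all 14748 genes tested, 1.37% passed it, 0.888% as higher and 0.481% as lower in shPUS1. With no minimum fold the count was again 0 of 25, against 2.58% of all genes. At an unadjusted p under 0.05 there were 6 collagen genes (24.0%), 3 higher and 3 lower in shPUS1, a share close to the 25.5% of all genes tested. DESeq2 called 3 collagen genes, COL1A1 and COL4A4 as higher and COL9A2 as lower, where it called 3.3% of all genes (1.69% higher, 1.61% lower), and limma voom called 0. The median log2 change was 0.09 over the collagen genes and -0.03 over all genes tested. The values of the groups did not overlap for 9 collagen genes (36.0%), 4 higher and 5 lower in shPUS1, against 36.1% of all genes. The filter on low counts was passed through 1 group only by COL9A3 and COL24A1, whose groups had to differ for that reason, and counts over the tested genes are given as a description. In bulk RNA, fewer cells that express a gene and less RNA per cell cannot be told apart.

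Without shControl replicate 2, the 2 chains of type IX collagen COL9A2 and COL9A3 passed the threshold as lower in shPUS1, where 3.28% of all genes passed it (1.63% higher, 1.66% lower). COL9A3 was tested only because its control libraries passed the filter, so its direction was fixed and the count of 2 is a description. At an adjusted p under 0.05 with no minimum fold there were then 5 collagen genes (20.0%), with COL1A1, COL4A2 and COL4A4 added, against 18.6% of all genes. The median over the collagen genes was then -0.01. shControl replicate 2 was the lowest of the 6 libraries for 10 of the 25 collagen genes (40.0%) and for 32.0% of all genes.

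**Figure D2:**
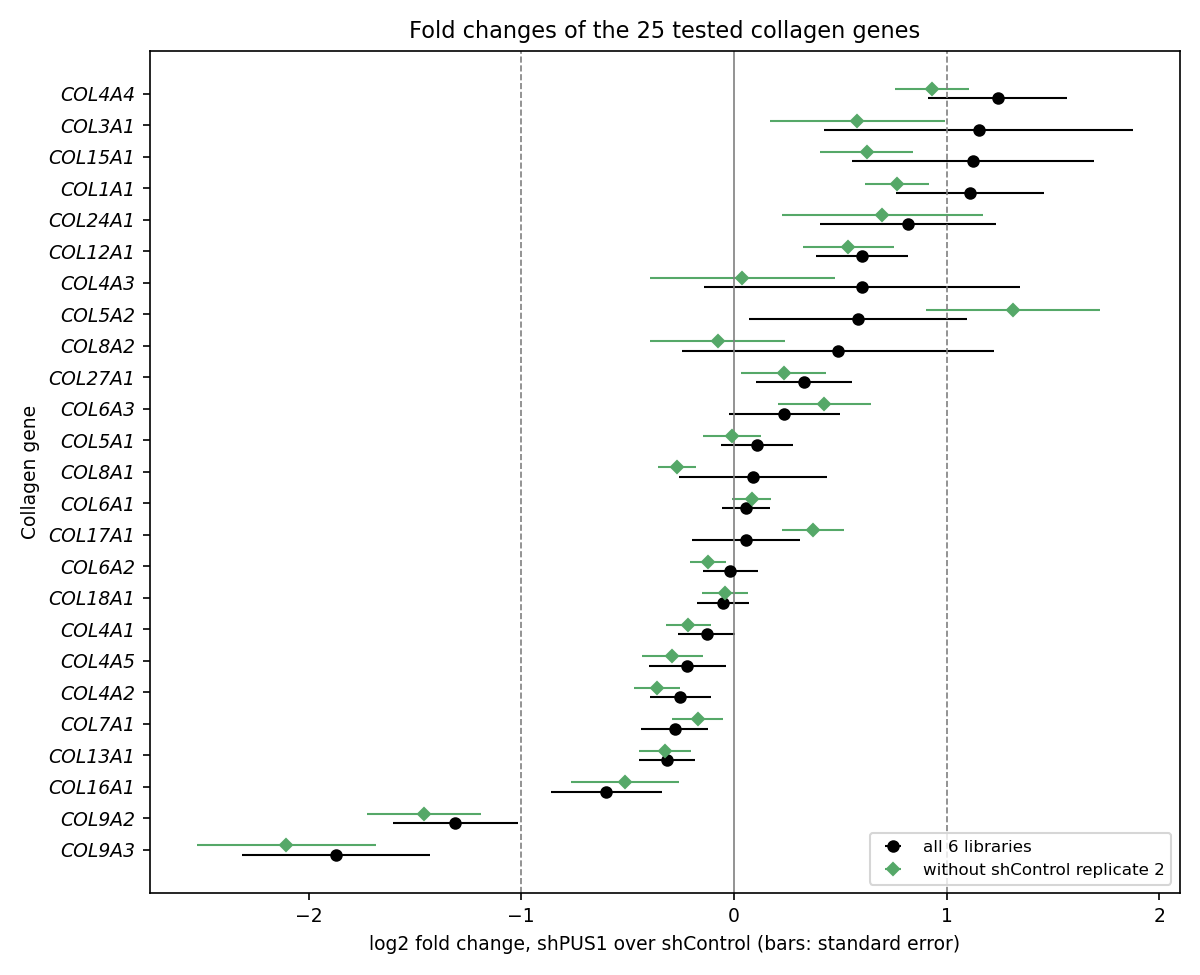
Log2 change of shPUS1 over shControl for the 25 tested collagen genes with standard errors as bars, from all 6 libraries (black circles) and without shControl replicate 2 (green diamonds), with dashed lines at the fold threshold. COL4A4 and COL1A1 lie near 1 and COL9A2 and COL9A3 below -1, while most of the abundant chains lie between -0.32 and 0.11.

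Among the fibrillar chains, COL1A1 (ENSG00000108821, chromosome 17, 50184101 to 50201632), the main chain of type I collagen, was at 14.4, 6.76 and 20.6 CPM in shControl replicates 1 to 3. In shPUS1 replicates 1 to 3 it was at 28.7, 31.9 and 29.04 CPM. Every knockdown library was above every control library, and shControl replicate 2 was the lowest. The fitted level was 2.15-fold higher in shPUS1 (log2 change 1.11, standard error 0.35, edgeR adjusted p = 0.11). It was 0.77 on the log2 scale when shControl replicate 2 was left out (adjusted p = 0.0123), and DESeq2 on all libraries gave an adjusted p of 0.0209. COL5A1, which helps to start fibrils, was at 86.2 ± 19.7 CPM in shControl and 92.9 ± 3.66 CPM in shPUS1 (SD, n = 3 each), a difference within the spread of the control libraries.

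The other tested fibrillar chains were outside the rule for naming and are given to account for every tested collagen gene. COL3A1, the chain of type III collagen, was at 1.77, 0.105 and 0.886 CPM in shControl replicates 1 to 3 and at 1.56, 1.75 and 2.72 CPM in shPUS1 replicates 1 to 3. The groups overlapped, and the log2 change of 1.15 (standard error 0.73, edgeR adjusted p = 0.349) fell to 0.58 without shControl replicate 2, where the gene had 2 counts. COL24A1 was at 0.315 to 0.458 CPM in shControl and 0.590 to 0.711 CPM in shPUS1, without overlap (log2 change 0.82, adjusted p = 0.253). COL27A1 was at 7.98 to 12.3 CPM in shControl and 10.2 to 13.2 CPM in shPUS1, and COL5A2 at 0.477 to 2.15 and 1.59 to 2.13 CPM, both with overlap. Their log2 changes were 0.33 and 0.58, with adjusted p of 0.385 and 0.494. COL5A2 was highest among the control libraries in shControl replicate 2, and without it the log2 change was 1.31 (adjusted p = 0.0574). The 6 tested fibrillar chains, COL24A1 among them through shPUS1 alone, had a median of 0.70, and 0.64 without shControl replicate 2, where COL5A1 turned to -0.0097. With all libraries 1 of the 6 had an unadjusted p under 0.05, against 25.5% of all genes.

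Markers of fibroblasts, the cells that make most fibrillar collagen in tissue, were measured beside these values. Of a list of 10 such markers without collagens, 2 had enough counts to be tested, LUM and PDGFRB. The summed FPKM of the list was 5.19, 1.42 and 5.98 in shControl replicates 1 to 3 and 8.93, 10.2 and 8.65 in shPUS1 replicates 1 to 3, and PDGFRB made up most of it. The groups did not overlap. For PDGFRB the log2 change was 1.00 (edgeR adjusted p = 0.195), and 0.59 without shControl replicate 2. Of the 8 markers listed as present in the line, 4 were lower in shPUS1 without overlap, VIM, CD44, AXL and LGALS1. Their log2 changes were -0.50, -0.29, -0.60 and -0.77, with edgeR adjusted p between 0.0544 and 0.169. They were -0.40, -0.22, -0.48 and -0.58 without shControl replicate 2, with adjusted p of 0.0305, 0.092, 0.014 and 0.0039. S100A4 was higher without overlap (log2 change 0.27, adjusted p = 0.249), and the groups of KRT18, ITGA3 and CAV1 overlapped. CAV1 had -0.42 with all libraries and -0.0028 without shControl replicate 2. Of all genes tested, 17.3% were lower and 18.8% higher without overlap. The part of these shifts in the collagen values was not tested. Of the listed fibroblast markers without enough counts to be tested, THY1, FAP, POSTN, MFAP5 and DCN did not exceed 0.05 FPKM in any library. PDGFRA, TCF21 and DPT reached up to 0.09, 0.13 and 0.09 FPKM.

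In the basement membrane class, COL4A4 (ENSG00000081052, chromosome 2, 227002714 to 227164453) was at 11.1, 6.08 and 16.6 CPM in shControl replicates 1 to 3. In shPUS1 replicates 1 to 3 it was at 26.2, 28.9 and 24.1 CPM. The knockdown libraries were all higher than the control libraries, and shControl replicate 2 was again the lowest. The fitted difference was 2.36-fold (log2 change 1.24, standard error 0.33, edgeR adjusted p = 0.0782). Leaving out shControl replicate 2 gave 0.93 on the log2 scale (adjusted p = 0.00967), under the minimum fold, and DESeq2 gave an adjusted p of 0.00494 on all libraries. Leaving out shControl replicate 3 gave 1.62 with an adjusted p of 0.0466, past the threshold.

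COL4A3, which shares the promoter region printed above with COL4A4 and forms a network with it, was at 0.851, 0.105 and 1.77 CPM in shControl replicates 1 to 3 and at 1.73, 1.37 and 0.944 CPM in shPUS1 replicates 1 to 3. The groups overlapped, and the log2 change was 0.60 with all libraries (standard error 0.74, edgeR adjusted p = 0.635) and 0.04 without shControl replicate 2, where the gene had 2 counts. Its level per length, 0.01 to 0.15 FPKM, was below the 0.50 to 2.44 FPKM of COL4A4.

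COL4A1 and COL4A2, the chains found in most basement membranes, were at 120 ± 15.6 and 290.0 ± 49.0 CPM in shControl and at 110 ± 7.0 and 244 ± 10.6 CPM in shPUS1 (SD, n = 3 each). Their log2 changes were -0.13 and -0.25, with edgeR adjusted p of 0.57 and 0.307. The control and knockdown libraries overlapped in both genes. When shControl replicate 2 was left out, COL4A2 had -0.36 with an adjusted p of 0.0486, and COL4A1 had -0.21 with 0.185. COL4A5, outside the rule for naming, was at 8.44 to 10.4 CPM in shControl and 7.44 to 8.29 CPM in shPUS1, without overlap (log2 change -0.22, adjusted p = 0.464).

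Among the fibril-associated chains, 4 of 10 were tested. COL9A2 (ENSG00000049089, chromosome 1, 40300489 to 40317813), a chain of the type IX collagen known from cartilage, was at 3.53, 3.04 and 4.84 CPM in shControl replicates 1 to 3. In shPUS1 replicates 1 to 3 it was at 1.39, 1.48 and 1.71 CPM, below every control library. The fitted level was 2.48-fold lower (log2 change -1.31, standard error 0.29, edgeR adjusted p = 0.0575), and -1.46 on the log2 scale without shControl replicate 2 (adjusted p = 0.00937). The counts behind it were 54 to 71 in shControl and 25 to 29 in shPUS1.

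COL9A3 (ENSG00000092758, chromosome 20, 62816244 to 62841159), which assembles with COL9A2, was at 1.96, 0.944 and 1.29 CPM in shControl replicates 1 to 3. In shPUS1 replicates 1 to 3 it was at 0.445, 0.383 and 0.295 CPM, below every control library. The log2 change was -1.87 (standard error 0.44, edgeR adjusted p = 0.062). Leaving out shControl replicate 2 gave -2.10 (adjusted p = 0.0128). It rested on 18 to 30 counts in shControl and 5 to 8 counts in shPUS1. Since it was tested through its control libraries alone, a lower value in shPUS1 was fixed by the filter, and the p is no independent evidence. Its last 155 bases overlap TCFL5 on the opposite strand, and without knowledge of strand reads from those bases cannot be assigned. Other tested chains also overlap genes on the opposite strand. Among them are COL4A3 (93741 of 150169 bases, MFF-DT), COL16A1 (7900 bases, PEF1-AS1) and COL1A1 (1757 bases, an unnamed gene). COL9A1, the remaining chain of type IX collagen, had 0 counts.

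COL12A1 (ENSG00000111799, chromosome 6, 75084326 to 75206267), a long chain that decorates type I fibrils, was at 245, 292 and 417 CPM in shControl replicates 1 to 3. In shPUS1 replicates 1 to 3 it was at 487, 561 and 401 CPM. The groups overlapped, since shControl replicate 3 was above shPUS1 replicate 3. The log2 change was 0.60 (standard error 0.22, edgeR adjusted p = 0.14) with all libraries and 0.54 without shControl replicate 2 (adjusted p = 0.117). The remaining tested chain of the class, COL16A1, was outside the rule for naming. It was at 2.998 to 4.04 CPM in shControl and 2.06 to 2.63 CPM in shPUS1, without overlap (log2 change -0.60, adjusted p = 0.198).

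**Figure D3:**
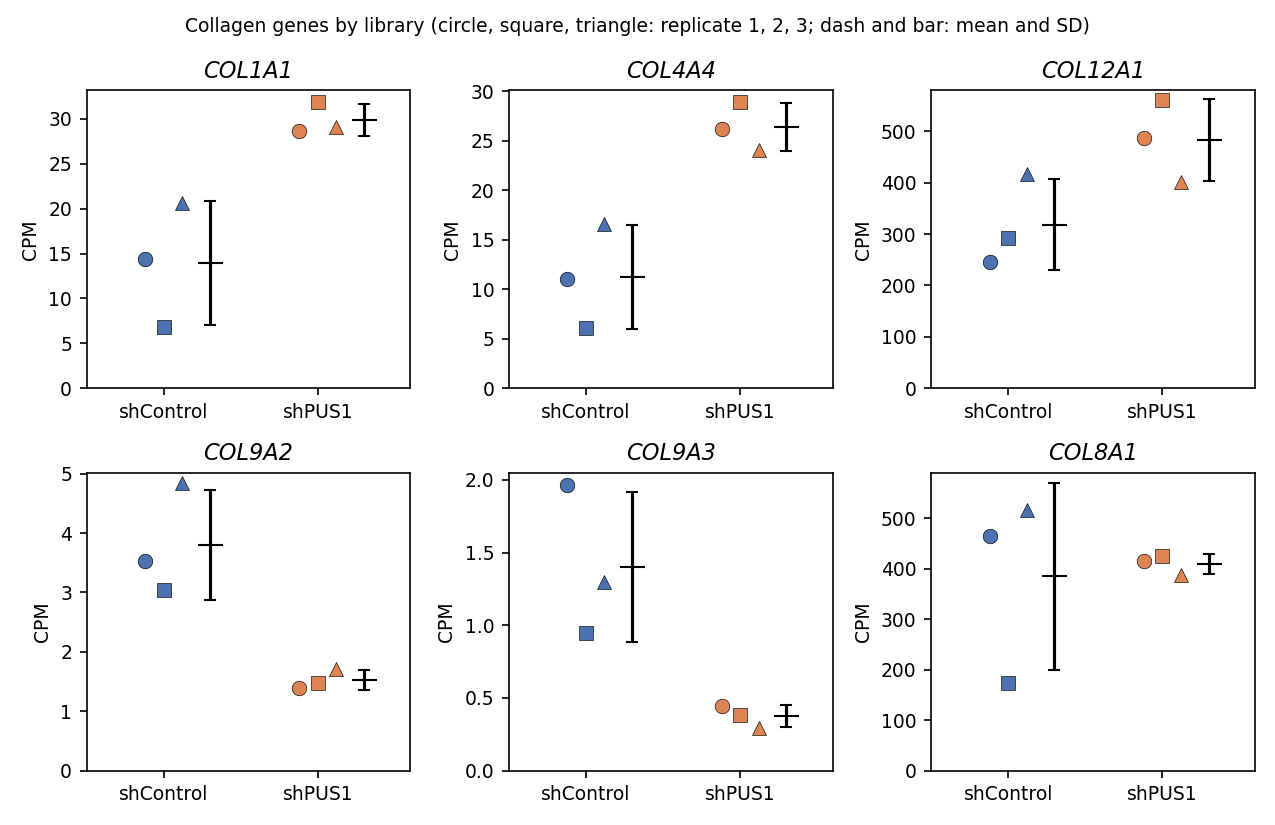
CPM per library, on linear axes from 0, of COL1A1, COL4A4, COL12A1, COL9A2, COL9A3 and COL8A1 in the 3 shControl (blue) and 3 shPUS1 (orange) libraries, with the mean and SD of each group. The groups do not overlap for COL1A1, COL4A4, COL9A2 and COL9A3, while COL12A1 overlaps and the spread of COL8A1 in shControl comes from replicate 2 at 173 CPM.

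COL8A1 (ENSG00000144810, chromosome 3, 99638475 to 99799226) had the largest spread between control libraries of the expressed chains on the CPM scale. It was at 465, 173 and 517 CPM in shControl replicates 1 to 3 and at 415, 425 and 388 CPM in shPUS1 replicates 1 to 3. From all libraries its log2 change was 0.09 (standard error 0.35, edgeR adjusted p = 0.889). Without shControl replicate 2 it was -0.27 (standard error 0.09, adjusted p = 0.0742), so that its sign depended on 1 library. COL8A2, outside the rule for naming, was at 2.75, 0.157 and 1.77 CPM in shControl replicates 1 to 3 and at 1.84 to 2.68 CPM in shPUS1. Its groups overlapped, and the log2 change was 0.49 with all libraries (edgeR adjusted p = 0.70) and -0.08 without shControl replicate 2. In both type VIII chains shControl replicate 2 was the lowest library, at 0.353 and 0.0696 of the mean of the other control libraries.

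The transmembrane chain COL13A1 (ENSG00000197467, chromosome 10, 69801880 to 69964275), found at cell adhesions, was at 192, 173 and 156 CPM in shControl replicates 1 to 3 and at 138, 127 and 153 CPM in shPUS1 replicates 1 to 3. The knockdown libraries were all below the control libraries (log2 change -0.32, standard error 0.13, edgeR adjusted p = 0.184). COL17A1, a hemidesmosome protein, was at 16.6 ± 5.79 CPM in shControl and 17.2 ± 2.12 CPM in shPUS1 (SD, n = 3 each), with overlap (log2 change 0.05). Without shControl replicate 2, the highest library, its log2 change was 0.37 (edgeR adjusted p = 0.109).

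The remaining expressed chains had log2 changes between -0.28 and 0.06. COL6A1 was at 55.2 ± 2.53 and 57.4 ± 1.08 CPM and COL6A2 at 98.8 ± 12.3 and 97.6 ± 1.10 CPM in shControl and shPUS1 (SD, n = 3 each). Their log2 changes were 0.06 and -0.02, with standard errors of 0.11 and 0.13. COL18A1 was at 80.7 ± 7.83 and 77.9 ± 3.73 CPM, and the log2 change was -0.05 (standard error 0.12). In GENCODE release 29, 12.6% of the 100-base stretches of COL18A1 also occur in other genes, either strand counted, and SLC19A1 overlaps 20149 bases of the gene on the opposite strand. COL7A1 was at 36.2 ± 4.86 and 29.8 ± 3.79 CPM (log2 change -0.28, edgeR adjusted p = 0.304), with overlap between the groups. Outside the rule for naming, COL6A3 was at 4.12 to 7.50 CPM in shControl and 6.20 to 7.55 CPM in shPUS1, with overlap (log2 change 0.24, adjusted p = 0.592). COL15A1, a multiplexin like COL18A1, was at 3.86, 0.524 and 2.73 CPM in shControl replicates 1 to 3 and at 5.17, 5.14 and 5.02 CPM in shPUS1 replicates 1 to 3. Its groups did not overlap, and the log2 change was 1.12 with all libraries (standard error 0.57, adjusted p = 0.253) and 0.62 without shControl replicate 2.

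The proteins that modify, fold, export, cleave, crosslink, bind and degrade collagen were examined beside the chains, as 78 genes in 7 lists, of which 59 were tested. Of these, 3 passed the threshold (5.08%, against 1.37% of all genes tested), SERPINH1 and LOXL1 as lower and LUM as higher in shPUS1. At an unadjusted p under 0.05 there were 25 (42.4%, against 25.5%), 10 higher and 15 lower, and the groups did not overlap for 29 (49.2%, against 36.1%). The median log2 change over the 59 genes was -0.11, against -0.03 over all genes. Without shControl replicate 2, 23 of 61 tested genes had an adjusted p under 0.05 (37.7%, against 18.6%) and 3 passed the threshold (4.92%, against 3.28%), P4HA1 and LOXL1 as lower and LUM as higher. P4HA1, a prolyl hydroxylase subunit named after its values were seen, then had a log2 change of -1.02 (edgeR adjusted p = 0.00204). With all libraries P4HA1 had -0.70 (adjusted p = 0.209), and its groups overlapped.

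SERPINH1 (ENSG00000149257, chromosome 11, 75562056 to 75572783) encodes HSP47, the chaperone of procollagen in the endoplasmic reticulum. It was at 24.9, 32.3 and 25.6 FPKM in shControl replicates 1 to 3 and at 14.5, 12.7 and 13.3 FPKM in shPUS1 replicates 1 to 3. All knockdown libraries were below all control libraries, and the fitted level was 2.02-fold lower (log2 change -1.01, standard error 0.15, edgeR adjusted p = 0.0319). Without shControl replicate 2, the highest library, the log2 change was -0.86 (adjusted p = 0.0016), under the minimum fold. Of the 19 genes for modification and folding, 17 were tested, and 6 had an unadjusted p under 0.05, all lower in shPUS1, where 12.8% of all genes were lower and 12.6% higher at that level. The median of this list was -0.34 on the log2 scale, with 12 genes fitted below 0 and 5 above, where 47.3% of all genes were fitted above 0.

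LOXL1 (ENSG00000129038, chromosome 15, 73925989 to 73952137), a lysyl oxidase that crosslinks collagen and elastin, was at 4.40, 6.15 and 5.62 FPKM in shControl replicates 1 to 3 and at 2.73, 1.90 and 2.31 FPKM in shPUS1 replicates 1 to 3. The groups did not overlap, and the fitted level was 2.29-fold lower (log2 change -1.20, standard error 0.22, edgeR adjusted p = 0.0418). All 5 genes of the lysyl oxidase family were tested. LOXL1 alone had an unadjusted p under 0.05 with all libraries, where 25.5% of all genes had one. Without shControl replicate 2, LOX (-0.61, adjusted p = 0.00436) and LOXL4 (-0.61, adjusted p = 0.00861), named after their values were seen, were below 0.05 as well, under the minimum fold. Of all genes, 18.6% had an adjusted p under 0.05 in that fit. With all libraries LOX and LOXL4 had -0.21 and -0.25 (edgeR adjusted p of 0.758 and 0.671), with overlap between the groups. LUM (ENSG00000139329, chromosome 12, 91102629 to 91111494), which encodes lumican, a proteoglycan that binds collagen fibrils, was at 0.42, 0.06 and 0.21 FPKM in shControl replicates 1 to 3 and at 1.27, 1.74 and 1.68 FPKM in shPUS1 replicates 1 to 3. The knockdown libraries were all above the control libraries (log2 change 2.82, standard error 0.55, edgeR adjusted p = 0.0462, and 2.32 without shControl replicate 2). It rested on 3 to 17 counts in shControl and 62 to 85 in shPUS1. LUM is also 1 of the fibroblast markers described beside the fibrillar chains.

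With the replicate number as a block none of the 3 calls held (adjusted p of 0.0969, 0.119 and 0.0984 for SERPINH1, LOXL1 and LUM), although the numbers did not pair the libraries. None held either when any of shPUS1 replicates 1, 2 and 3 or shControl replicate 1 was left out. The adjusted p for SERPINH1, LOXL1 and LUM was then 0.171, 0.171 and 0.195 without shPUS1 replicate 1, and 0.222, 0.244 and 0.245 without shPUS1 replicate 2. It was 0.172, 0.189 and 0.189 without shPUS1 replicate 3, and 0.083, 0.0845 and 0.079 without shControl replicate 1. Without shControl replicate 3, LOXL1 and LUM lost the call at 0.0548 and 0.0678. The signs stayed the same in all of these fits. TGFBI, a collagen-binding adhesion protein named after its values were seen, had an adjusted p of 0.0459 and a log2 change of -0.58, under the minimum fold.

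No other list had a gene past the threshold with all libraries. In each of them the genes with the smallest p are given. Of the 10 export genes, all tested, 3 were higher and 2 lower at an unadjusted p under 0.05, where 12.6% and 12.8% of all genes were. SEC23A, a subunit of the vesicle coat, had a log2 change of 0.63 (edgeR adjusted p = 0.134). KLHL12 and PDCD6, parts of the ubiquitin ligase that enlarges those vesicles, had -0.46 (adjusted p = 0.09) and -0.41 (adjusted p = 0.117). These changes were 0.39, -0.44 and -0.48 without shControl replicate 2, with adjusted p of 0.0201, 0.0224 and 0.0237. MIA3 and MIA2, named after their values were seen, were the other higher genes, without overlap. They had 0.78 (adjusted p = 0.161) and 0.35 (adjusted p = 0.154). Without shControl replicate 2, MIA3 had 0.46 (adjusted p = 0.0155). Of the 11 receptors, 8 were tested, with 4 higher and 2 lower at an unadjusted p under 0.05 (12.6% and 12.8% of all genes). The kinase receptor DDR1 was at 6.15, 4.11 and 7.83 FPKM in shControl replicates 1 to 3 and at 9.94, 11.4 and 9.71 FPKM in shPUS1 replicates 1 to 3, without overlap (log2 change 0.81, edgeR adjusted p = 0.074). The integrin subunits ITGA1 and ITGA2 had 0.87 (adjusted p = 0.0865) and 0.72 (adjusted p = 0.0897). ITGA10, named after its values were seen, was the other higher receptor, without overlap. It had 1.28 (adjusted p = 0.161), and 0.84 without shControl replicate 2. It rested on 5 to 16 counts in shControl and 28 to 36 in shPUS1. The 2 lower receptors, named after their values were seen, were ADGRG1 and the integrin subunit ITGB1, both without overlap. ADGRG1 had -0.60 (edgeR adjusted p = 0.114). ITGB1 had -0.26 (adjusted p = 0.191, and 0.0453 without shControl replicate 2). Without shControl replicate 3, DDR1 (1.02, adjusted p = 0.0495) and ITGA1 (1.13, adjusted p = 0.0489) passed the threshold. Without shControl replicate 2 they had 0.61 (adjusted p = 0.0139) and 0.64 (adjusted p = 0.02), under the minimum fold.

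Among the degradation genes, of which 7 of 11 were tested, MMP14, a membrane-bound collagenase, was at 119, 102 and 107 FPKM in shControl replicates 1 to 3 and at 78.8, 73.3 and 83.0 FPKM in shPUS1 replicates 1 to 3. MMP1, a secreted collagenase, was at 78.6, 42.8 and 65.0 FPKM and at 97.0, 90.5 and 109 FPKM in the same order. The groups overlapped for neither gene, with the knockdown libraries lower in MMP14 and higher in MMP1. Their log2 changes were -0.46 and 0.70, with edgeR adjusted p of 0.0699 and 0.0952. They were -0.49 and 0.50 without shControl replicate 2, with adjusted p of 0.0134 and 0.0285. PEPD, which splits proline dipeptides, had 0.24 (edgeR adjusted p = 0.348), with overlap between the groups. In the cleavage list, with 5 of 10 genes tested, BMP1, the C-proteinase of procollagen, had 0.49, and its enhancer PCOLCE2 had -0.68, with adjusted p of 0.129 and 0.185. ADAMTS14 had -0.46.

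**Figure D4:**
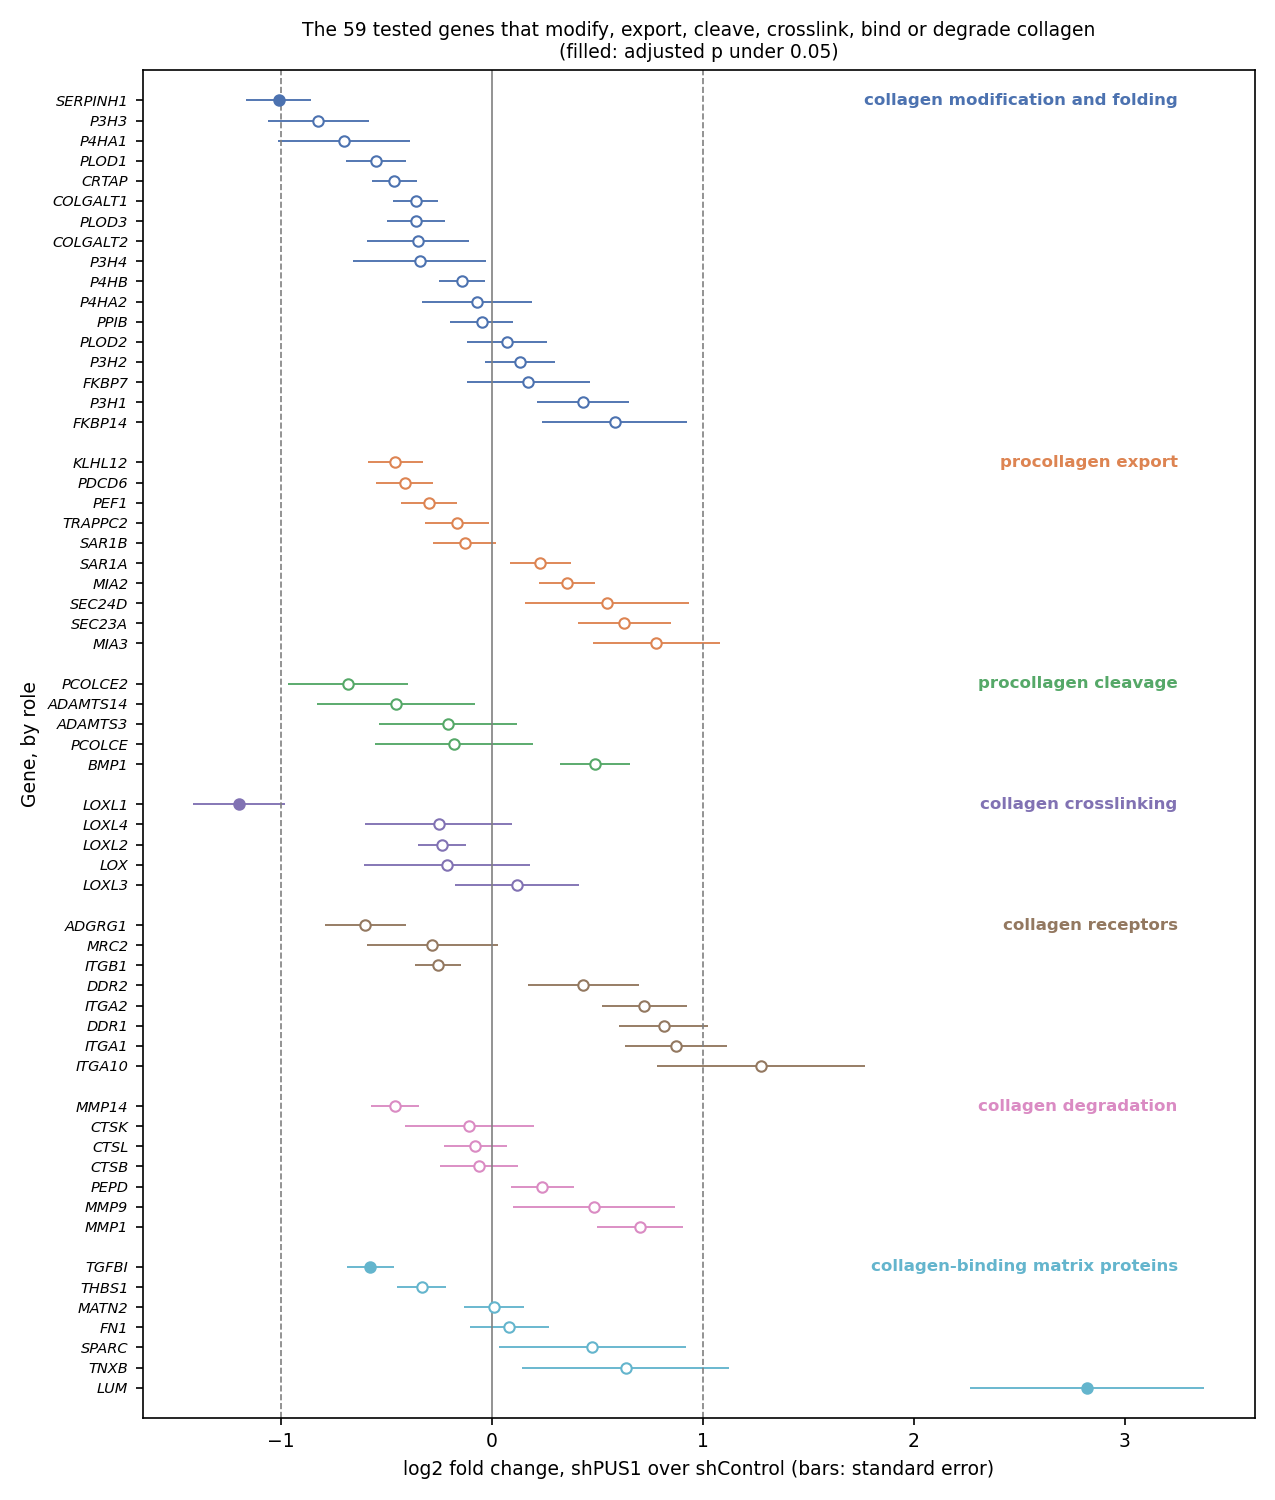
Log2 change of shPUS1 over shControl with standard errors for the 59 tested partner genes, grouped by role, with dashed lines at the fold threshold and filled circles at an adjusted p under 0.05. SERPINH1 at -1.01, LOXL1 at -1.20 and LUM at 2.82 lie past both criteria, and TGFBI at -0.58 is filled but inside the fold lines.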

How the data were processed

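RNA was measured in 3 shControl and 3 shPUS1 libraries of MDA-MB-231 cells, grouped by their titles. The authors aligned paired reads with HISAT2 and counted them per gene with HTSeq 0.6.1, per the submitters' processing notes. The table as deposited holds estimated counts for each gene, without normalization by the authors, and 29.8% to 31.8% of those above 0 were not whole numbers. The paper's methods do not say how counts that are not whole arose. The deposited FPKM values equal these counts per kilobase of listed exonic length and scaled to the library total. The genome build, annotation and strandedness are not given in the sources used here. All 44 collagen identifiers were found in GENCODE release 29 (GRCh38), where each overlaps the listed coordinates on the same strand and 13 have the same start and end.

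Counts were rounded, filtered with filterByExpr (at least 10 counts at the median library size, in at least 3 libraries), scaled by TMM (factors 0.973 to 1.032) and compared by quasi-likelihood F tests (edgeR 4.0.16, R 4.3.3) with a prior count of 0.125 and Benjamini-Hochberg adjustment over all 14748 genes tested. The biological coefficient of variation was 0.22. CPM use the library total times the TMM factor, FPKM compare levels between genes, and fold changes give shPUS1 over shControl. Chain ratios were compared with an exact permutation test. Residuals of libraries with the same replicate number had correlations of -0.05, -0.03 and -0.19, so the numbers did not pair the libraries. Intervals and limits from counts cover counting error only.

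The collagen genes and all lists were chosen with earlier results of these data known. The rule for naming took every collagen gene with a mean of at least 1 FPKM or an unadjusted p under 0.05, and from each partner list the genes past the threshold or otherwise the 3 with the smallest p. Alternatives were other scalings and filters, DESeq2 1.42.0, limma 3.58.1 voom, a replicate block, each library left out and no minimum fold. The longest coding transcript as gene length was added after seeing the data. Summaries and plots were made in Python 3.11.15 (pandas 2.3.3, matplotlib 3.10.9, scipy 1.17.1, numpy 2.4.6). No columns of other samples were in the table.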

Additional observations from a re-analysis of the deposited data

How the results depend on the processing

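The count of collagen genes past the threshold, 0 with all libraries, was 4 with no filter on low counts (2 higher, 2 lower), 3 with DESeq2, and 0 to 2 when single libraries were left out. It stayed at 0 with 5 other settings, DESeq2 size factors, library totals without TMM, a stricter filter, limma voom and a replicate block, and with no minimum fold change. COL4A4 passed it without shControl replicate 3. Of all genes, 3.3% passed with DESeq2 and 3.28% without shControl replicate 2. The share of all genes is not given for the other settings, so those counts are a description. The count of partner genes past the threshold, 3 with all libraries, was 0 with a replicate block, where the smallest adjusted p among the 3 was 0.0969, and 0 to 3 when single libraries were left out. The replicate block also took PUS1 past 0.05 (adjusted p = 0.0969, and 0.0565 with voom) and changed no other call. LUM had 0.0523 without TMM. The causes were not tested. Leaving out single libraries turned the sign of 6 collagen genes whose fold changes were near 0 or rested on few counts. Their log2 fold changes ran from -0.27 to 0.35 for COL8A1, -0.12 to 0.046 for COL6A2, -0.13 to 8.6e-07 for COL18A1, -0.0097 to 0.30 for COL5A1, -0.13 to 0.37 for COL17A1 and -0.077 to 1.21 for COL8A2. The log2 difference of the COL6A1 to COL6A2 ratio ran from -0.0013 to 0.20 and that of COL4A1 to COL4A2 from 0.09 to 0.14. The count of expressed collagen genes was 13 at a mean of 1 FPKM, 23 at 0.1 FPKM, 25 by filterByExpr and 15 with the longest coding transcript. DESeq2 gave no adjusted p for COL9A3. The 19 chains left out by the filter had at most 17 counts in a library, and with no filter 36 collagen genes were tested.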
